A study of Mus musculus with 12 samples.

Results

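Chromatin accessibility in mouse liver was compared between drug-treated and vehicle-treated animals, with both drugs taken as a single treated arm. The treated arm joined the 4 libraries from livers given PCN (pregnenolone 16α-carbonitrile) and the 4 from livers given atorvastatin, and it was set against the 4 control libraries. All 12 of the 12 libraries entered, and the comparison was repeated with 10 of them, 7 treated and 3 control, after atorvastatin library 3 and control library 3 were left out. That pair was chosen because an earlier look at these same data found that it correlates poorly with the rest. Its median promoter correlations with the other libraries were 0.744 and 0.698. Control library 4, at 0.898, was kept, and the rest had 0.950 to 0.967. The p-values with 10 libraries hold only given that choice. Both deposited tables were used, with 43511 promoters and 406518 enhancer regions.

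The animals were male wild-type C57BL/6N mice, 19 to 20 weeks old, on a standard chow diet. One drug group had PCN at 100 mg/kg, the other had atorvastatin at 10 mg/kg, and the control group had distilled water as vehicle, in each case by gavage for 4 days. Mice of every group were then fasted for 12 h overnight, so the control livers are fasted livers too. The labels state groups of 9 to 10 mice and 4 libraries per group, and do not state whether a library came from a single mouse. Nuclei of the whole liver were tagmented without a sort, so each library mixes the cell types of the liver. A pravastatin group named in the study's design is not analysed here.

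ATAC-seq marks open chromatin: the transposase Tn5 cuts accessible DNA, and reads pile up at active promoters and enhancers. PCN is the standard rodent agonist of PXR (Nr1i2), a nuclear receptor that binds with RXR to drug-metabolism genes in hepatocytes. Atorvastatin is a statin, a drug that lowers cholesterol synthesis, and it is known to activate the human form of PXR. The pooled comparison asks which regions shift the same way under both agents.

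Total promoter counts ran from 4218336.5 to 15336000.5 per drug library (median 8048746.5) and from 1679054 to 10493197 per control library (median 4315702.75). Enhancer totals were 2671493.5 to 13078975.5 per drug library and 1256648.5 to 5517722 per control library. The drug libraries were deeper by 0.96 on the log2 scale for promoters (exact permutation test, two-sided p = 0.103) and by 1.22 for enhancers (exact permutation p = 0.0444). Over the family of 4 library measures the adjusted p of both was 0.159. Without the pair left out, these differences were 0.71 (exact permutation p = 0.317) and 0.91 (exact permutation p = 0.175). Depth was thus higher on average in the drug arm in both library sets, though no adjusted permutation p was below 0.05. The part of depth in the results was not tested. Atorvastatin library 3 had no count in 27.4% of enhancer regions, control library 3 in 68.6% and control library 4 in 38.0%, against 0.690% to 18.9% in the other 9 libraries.

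With all 12 libraries no promoter passed the threshold between the drug-treated and control livers. Of 41911 promoters tested, 0 (0%) passed an adjusted p threshold of 0.05 in the quasi-likelihood test of edgeR (Benjamini-Hochberg), and the smallest adjusted p was 0.659. At an unadjusted p below 0.05 there were 969 promoters higher (2.31%) and 779 lower (1.86%). DESeq2 called 1 promoter, and limma-voom with sample weights called 3232 (1000 higher, 2232 lower). Every drug library lay above every control library at 87 promoters (0.208%) and below every control at 70 (0.167%).

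With the 10 libraries, 11 of 41918 promoters passed the threshold (0.0262%), 9 higher in the drug-treated livers (0.0215%) and 2 lower (0.00477%). They belong to 10 genes. Of the 24612 genes tested with 1 promoter each, 1.02% had every drug library above every control. The higher ones were Hamp, which encodes the iron hormone hepcidin, Mir6978 and Tnfsf14 beside the complement gene C3, the acyl-CoA thioesterase gene Acot4, the RNA-binding protein gene A1cf with 2 transcripts of identical counts, Tgm1, Smpd5 and the long non-coding gene Gm29684. The lower ones were Myl7, the atrial myosin light chain, and Mir704. All 11 moved the same way in PCN and in atorvastatin livers, which their choice by the pooled fit favours. At an unadjusted p below 0.05 there were 1788 promoters higher (4.27%) and 1180 lower (2.82%), and complete separation of the arms was seen at 454 higher (1.08%) and 579 lower (1.38%).

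**Figure D1:**
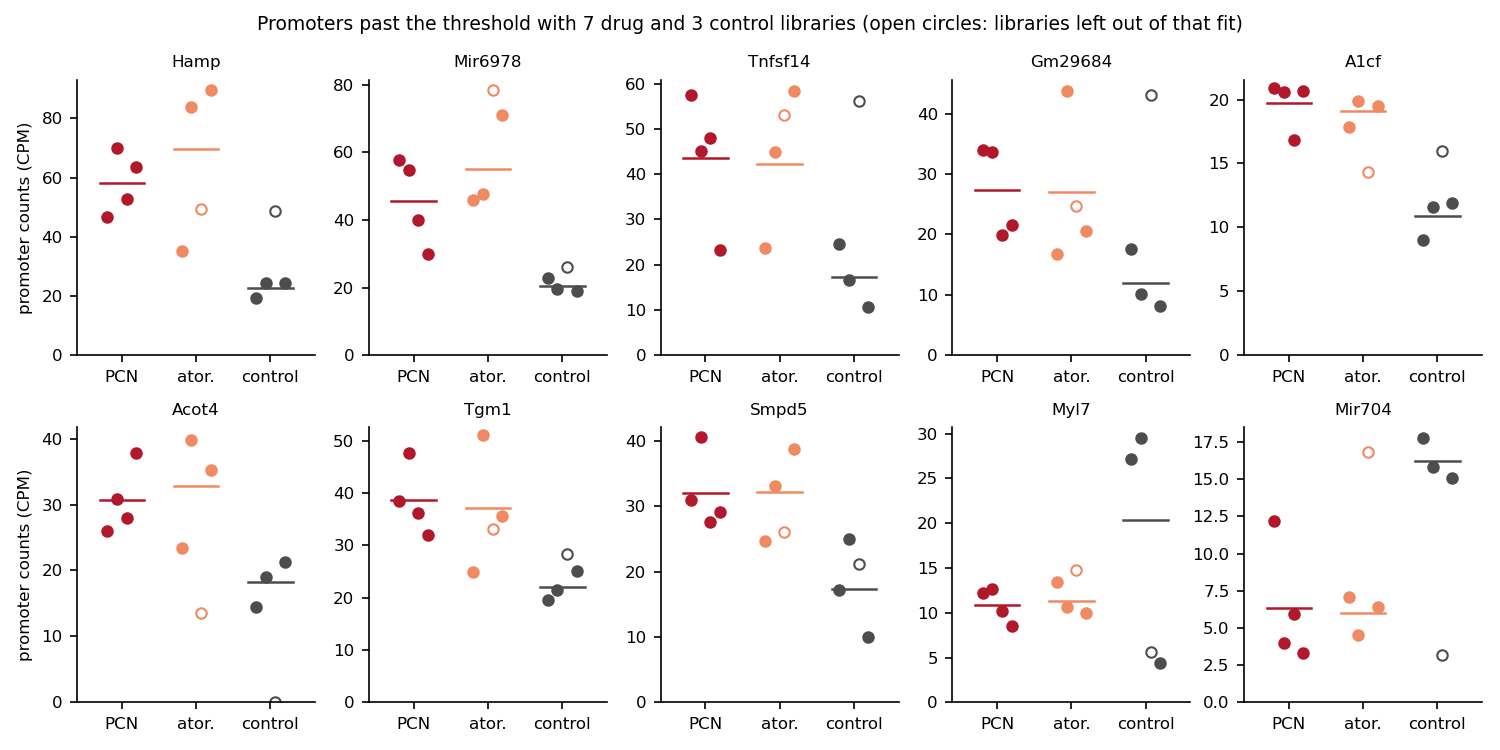
Promoter CPM (read counts scaled to a common library total, vertical axis) at the 10 genes past the threshold with 10 libraries, for PCN, atorvastatin and control livers (horizontal axis), scaled over all 12 libraries. Points are libraries, open circles are the 2 libraries left out of the 10-library fit, and bars are means of the filled points. At Hamp and Tnfsf14 the open control circle, at 48.7 and 56.2 CPM, stands among the drug-treated points.

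Hamp (NM_032541, chr7:30942368-30944029, GRCm38.p6) encodes hepcidin, the peptide by which the liver closes the iron exporter ferroportin. In CPM, counts scaled to a common library total, it had 46.0, 68.2, 52.3 and 62.5 in PCN livers 1 to 4, 34.3, 81.9 and 88.3 in atorvastatin livers 1, 2 and 4, and 18.9, 24.0 and 24.1 in control livers 1, 2 and 4. Every drug-treated library stood above every control, and the lowest of them was atorvastatin 1. The drug-treated mean was 61.9 ± 19.3 CPM and the control mean 22.3 ± 2.98 CPM (SD, n = 7 and 3), a log2 fold change of 1.503 ± 0.22 (SE, adjusted p = 2.79e-05). Scaled over all 12 libraries, the pair left out had 49.4 CPM in atorvastatin 3 and 48.7 CPM in control 3. With that pair the groups overlapped, and the change was 1.10 ± 0.27 (adjusted p = 0.980). Hamp and its copy Hamp2 are close in sequence, and how reads matching both were counted is not given in the sources used here.

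The promoter of Hamp is shown because it had the smallest p with 10 libraries and because this stretch is a well-known site of control by BMP and STAT signals. The sequence is RefSeq's for GRCm38.p6, chr7:30943980-30944279 on the minus strand, from 250 bases before to 50 after the start. Capitals mark 2 matches, GGCGCC at bases -109 to -104 (the core of a BMP-responsive element) and TTCNNNGAA (a STAT motif) at -97 to -89.
Hamp promoter: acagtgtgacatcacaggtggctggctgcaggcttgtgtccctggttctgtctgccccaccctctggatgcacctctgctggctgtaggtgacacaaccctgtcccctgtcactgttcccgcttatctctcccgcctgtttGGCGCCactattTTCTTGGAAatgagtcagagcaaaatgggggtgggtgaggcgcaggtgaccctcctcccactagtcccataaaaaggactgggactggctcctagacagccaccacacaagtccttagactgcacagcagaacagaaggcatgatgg
Either strand of GGCGCC occurs in 11.9% of all 32851 promoter windows of this length and either strand of TTCNNNGAA in 8.30%. The matches describe the sequence only, and the counts in the promoter table do not resolve single sites.

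Mir6978 and Tnfsf14 lie in the same stretch of chromosome 17, the miRNA gene (NR_105944, chr17:57217172-57217228) inside the gene body of C3 (chr17:57203967-57228136) and Tnfsf14 (NM_019418, chr17:57189474-57194181) beside it. The promoter of Mir6978 had 56.6, 53.3, 39.8 and 29.5 CPM in PCN livers, 44.9, 46.5 and 70.2 CPM in atorvastatin livers, and 22.2, 19.2 and 18.5 CPM in control livers. No drug-treated library overlapped the controls, and with all 12 libraries the arms stayed apart (78.4 CPM in atorvastatin 3, 25.9 CPM in control 3). The change was 1.27 ± 0.20 with 10 libraries (adjusted p = 4.98e-05) and 1.29 ± 0.24 with 12 (adjusted p = 0.659), where it had the smallest p of all promoters.

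Tnfsf14 encodes LIGHT, a TNF-family ligand best known from lymphocytes. Its promoter had 56.6, 44.0, 47.7 and 22.8 CPM in PCN livers, 23.1, 43.8 and 57.6 CPM in atorvastatin livers, and 23.8, 16.3 and 10.5 CPM in control livers. PCN 4 and atorvastatin 1 lay below control 1, so the groups overlapped. The change was 1.22 ± 0.20 (adjusted p = 0.000183), and 0.72 ± 0.32 with all 12 libraries (adjusted p = 0.980), where control 3 had 56.2 CPM. The call was lost with DESeq2 (adjusted p = 0.0575), limma-voom (0.0761) and loess scaling (0.164), but by leaving out no single library. C3 itself, the central complement protein, was at 66.1 ± 12.5 CPM in drug-treated and 40.7 ± 11.1 CPM in control livers (SD, n = 7 and 3), with a change of 0.74 ± 0.22 that did not pass (adjusted p = 0.385).

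The 2 mature strands of the Mir6978 hairpin and the promoter of Tnfsf14 are shown as the sequences of this locus. The miRNAs are from RefSeq, on the minus strand of GRCm38.p6, with the seed (bases 2 to 8) in capitals. The promoter window is chr17:57194132-57194431, minus strand. None of the 7 motifs searched on both strands (the receptor sites AGTTCA and AGGTCA, the BMP core GGCGCC, the STAT motif TTCNNNGAA, the sterol element TCACNCCAC, the E-box CACGTG and the TATA box) is in it, so it has no capitals.
mmu-miR-6978-5p: aAGGGGUGagagagaagcuggug
mmu-miR-6978-3p: aCGGCUUCacucucacccugcag
Tnfsf14 promoter: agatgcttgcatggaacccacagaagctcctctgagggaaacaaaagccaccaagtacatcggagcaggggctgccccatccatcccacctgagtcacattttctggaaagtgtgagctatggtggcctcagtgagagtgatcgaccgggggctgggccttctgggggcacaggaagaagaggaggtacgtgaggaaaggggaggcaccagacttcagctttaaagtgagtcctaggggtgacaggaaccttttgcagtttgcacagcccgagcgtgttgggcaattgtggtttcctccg
Read counts at this promoter are from genomic DNA and say nothing of the level of either strand.

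Acot4 (NM_134247, chr12:84037254-84044723) encodes a peroxisomal acyl-CoA thioesterase and is a classical target of PPARα. It had 25.6, 30.1, 27.8 and 37.3 CPM in PCN livers, 22.9, 38.7 and 34.7 CPM in atorvastatin livers, and 14.1, 18.8 and 21.0 CPM in control livers. The arms did not overlap, and the change was 0.86 ± 0.17 (adjusted p = 0.0149). Without atorvastatin 2, control 1 or control 2 it was 0.79, 0.67 or 0.94 and missed the threshold (adjusted p 0.213, 0.571 and 0.149). The call was lost with DESeq2 and loess scaling too. In the scaling over 12 libraries, atorvastatin 3 had 13.5 CPM and control 3 had none.

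The promoter of Acot4 (chr12:84038129-84038428, plus strand) is shown because short sites of nuclear receptors can be looked for in it. Capitals mark TATAAA on the plus strand at -205 to -200 and at -151 to -146, where it overlaps a minus-strand copy at -153 to -148, CACGTG (an E-box) at -66 to -61, and a minus-strand AGGTCA, the core site of many nuclear receptors, at -13 to -8.
Acot4 promoter: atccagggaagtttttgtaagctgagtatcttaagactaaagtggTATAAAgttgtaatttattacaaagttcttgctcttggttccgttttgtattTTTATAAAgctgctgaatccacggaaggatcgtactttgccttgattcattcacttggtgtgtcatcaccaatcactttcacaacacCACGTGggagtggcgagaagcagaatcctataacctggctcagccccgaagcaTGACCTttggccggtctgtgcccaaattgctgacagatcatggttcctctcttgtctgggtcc
AGGTCA on either strand is in 16.3% of the 32851 windows, CACGTG in 7.15% and TATAAA in 13.6%, and AGTTCA, which is not in this window, in 14.0%. TCACNCCAC, also not found here, is in 1.24%.

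A1cf (chr19:31868756-31952365) encodes a partner of the enzyme that edits Apob mRNA. It had 20.6, 20.1, 16.7 and 20.4 CPM in PCN livers, 17.5, 19.4 and 19.2 CPM in atorvastatin livers, and 8.77, 11.4 and 11.7 CPM in control livers. The arms did not overlap, with a mean of 19.1 ± 1.48 CPM in drug-treated and 10.6 ± 1.63 CPM in control livers (SD, n = 7 and 3). The change of 0.89 ± 0.19 only just passed (adjusted p = 0.0442). Atorvastatin 3, left out, had 14.3 CPM and control 3 had 16.0 CPM. The call was lost when PCN 1, PCN 2, PCN 4, atorvastatin 2, atorvastatin 4, control 1 or control 2 was left out, with changes of 0.73 to 1.00 and adjusted p of 0.0537 to 0.845.

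The 3 remaining higher promoters overlapped between the arms. Tgm1 (NM_019984, chr14:55700009-55713921), a transglutaminase known from epithelia, had 37.8, 46.5, 36.0 and 31.6 CPM in PCN, 24.4, 49.7 and 35.1 CPM in atorvastatin, and 19.1, 21.1 and 24.7 CPM in control livers. Its change was 0.84 ± 0.18 (adjusted p = 0.0338), while its other 2 transcripts had 0.80 and just missed (adjusted p = 0.0600). Atorvastatin 1 was the only drug-treated library within the control range. The call was lost without PCN 1, PCN 2, atorvastatin 2, control 1 or control 2 (changes of 0.75 to 0.84, adjusted p of 0.0677 to 0.571).

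Smpd5 (NM_001195537, chr15:76294278-76296896), a neutral sphingomyelinase gene, had 30.5, 39.5, 27.4 and 28.7 CPM in PCN, 24.2, 32.3 and 38.2 CPM in atorvastatin, and 16.8, 24.6 and 9.88 CPM in control livers, a change of 0.79 ± 0.17 (adjusted p = 0.0442). Gm29684 (NR_131146, chr10:95120582-95145825) had 33.5, 32.8, 19.9 and 21.2 CPM in PCN, 16.4, 42.7 and 20.3 CPM in atorvastatin, and 17.1, 9.92 and 8.03 CPM in control livers, a change of 1.07 ± 0.20 (adjusted p = 0.00290). In both, the highest control stood above atorvastatin 1 alone. The Smpd5 call was lost without PCN 1, PCN 2, atorvastatin 2, atorvastatin 4, control 1 or control 4 (0.63 to 0.79, adjusted p of 0.0957 to 0.571). The Gm29684 call was lost without PCN 1, atorvastatin 2 or control 2 (0.90 to 1.01, adjusted p of 0.0578 to 0.245). With 12 libraries the change of Gm29684 was 0.47 ± 0.33. Of the pair restored there, atorvastatin 3 had 24.7 CPM and control 3 had 43.1 CPM, above every other library but atorvastatin 2 (43.8 CPM).

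Mir704 (NR_030485, chr6:47803576-47803652) had 12.0, 3.89, 5.91 and 3.26 CPM in PCN livers, 6.91, 4.44 and 6.35 CPM in atorvastatin livers, and 17.3, 15.6 and 14.8 CPM in control livers. Every drug-treated library stood below every control, and PCN 1 was nearest to them. The change was -1.37 ± 0.29 (adjusted p = 0.0338), and without PCN 2, PCN 3, atorvastatin 2, control 1 or control 2 it was -1.30 to -1.39 and did not pass (adjusted p of 0.0606 to 0.472). With the pair left out restored, atorvastatin 3 had 16.8 CPM and control 3 had 3.19 CPM, each on the other arm's side, and the change was -0.79 ± 0.45 (adjusted p = 0.980).

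Myl7 (NM_022879, chr11:5896637-5898782) is known for its expression in the atria of the heart. It had 12.0, 12.3, 10.2 and 8.35 CPM in PCN, 13.2, 10.4 and 9.81 CPM in atorvastatin, and 26.5, 29.0 and 4.32 CPM in control livers. Controls 1 and 2 were high and control 4 was the lowest of all libraries, so the drug-treated values sat inside the control range. The mean was 10.9 ± 1.67 CPM in drug-treated and 19.9 ± 13.6 CPM in control livers (SD, n = 7 and 3). The change of -1.04 ± 0.21 (adjusted p = 0.0149) was -0.83 without control 1 and -0.73 without control 2, where it did not pass (adjusted p 0.571 and 0.802). It also missed without PCN 1 (adjusted p = 0.0578) or atorvastatin 2 (adjusted p = 0.213).

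The mature miRNA of Mir704 (RefSeq, GRCm38.p6, minus strand, seed in capitals) shares its seed with neither strand of Mir6978, and the promoter of Myl7 (chr11:5898733-5899032, minus strand) holds none of the 7 motifs. They are shown as the sequences of the 2 genes that fell.
mmu-miR-704: aGACAUGUgcucugcuccuag
Myl7 promoter: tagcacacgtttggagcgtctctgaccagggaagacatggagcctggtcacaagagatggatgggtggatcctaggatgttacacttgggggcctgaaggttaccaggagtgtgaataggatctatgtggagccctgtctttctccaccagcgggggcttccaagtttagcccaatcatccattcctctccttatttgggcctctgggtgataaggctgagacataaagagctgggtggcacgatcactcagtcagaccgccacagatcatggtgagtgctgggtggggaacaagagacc
RefSeq windows were found for Hamp, Tnfsf14, Acot4, A1cf and Myl7, and the window of A1cf holds none of the 7 motifs either.

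Each drug alone gave the same direction at all 10 genes. These genes were picked by the pooled fit of the same drug libraries, which favours a shared direction. The 2 estimates also rest on the same control libraries, so their likeness is not independent evidence. Among these 10 genes, PCN alone passed the threshold against control at 4 and atorvastatin at the same 4. At Hamp the change was 1.38 for PCN (adjusted p = 0.00171) and 1.65 for atorvastatin (adjusted p = 5.30e-05). At Mir6978 it was 1.15 for PCN (0.00474) and 1.42 for atorvastatin (5.93e-05). Tnfsf14 had 1.24 for PCN (0.00161) and 1.21 for atorvastatin (0.00312), and Gm29684 had 1.06 for PCN (0.0106) and 1.08 for atorvastatin (0.0149). Acot4, Myl7, A1cf, Tgm1, Smpd5 and Mir704 passed only when the drugs were pooled.

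**Figure D2:**
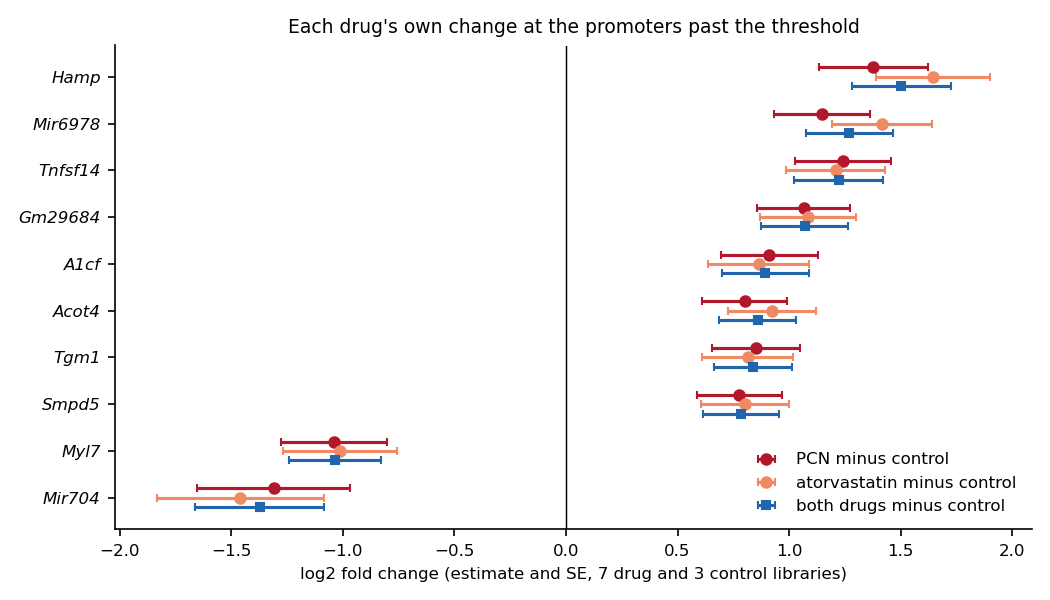
Log2 fold change against control (horizontal axis, point and SE) for PCN alone, atorvastatin alone and both drugs pooled, at the 10 genes past the threshold (vertical axis), with 7 drug and 3 control libraries. The 3 estimates of a gene lie on the same side of 0 throughout, from 1.503 for both drugs at Hamp to -1.37 at Mir704.

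The direct test between the drugs, which uses no control library in the contrast, called 0 of 41918 promoters (0%), with 173 at an unadjusted p below 0.05 and 0 called by DESeq2. PCN minus atorvastatin was -0.27 at Hamp (95% interval -0.70 to 0.17), -0.27 at Mir6978 (-0.65 to 0.12), 0.03 at Tnfsf14 (-0.35 to 0.41) and 0.15 at Mir704 (-0.54 to 0.84). A gap of up to 0.70 between the drugs at Hamp lies within its interval, and a missed threshold does not show that the drugs act alike. With 12 libraries the drug contrast also called 0 of 41911 promoters (0%), with 313 at an unadjusted p below 0.05.

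Over all promoters, PCN and atorvastatin estimates had the same sign at 29674 of 41911 promoters (70.8%) with 12 libraries and at 35245 of 41918 (84.1%) with 10. With 12 libraries 16554 were higher under both drugs and 13120 lower under both. With 10 libraries 16798 were higher and 18447 lower. The shared controls enter both estimates of each promoter, so these shares carry no test.

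Regions around the called promoters were read for company. Enhancer regions near Hamp were above 0 at 19 of 20 with 10 libraries, with a median log2 change of 0.70, and at 19 of 19 with 12 libraries (median 0.65). Among the promoters beside Hamp, Usf2 had 0.57, Lsr 0.40, Hamp2 -0.31 and Mag -1.33, none past the threshold. Near Mir6978 and Tnfsf14, 13 of 15 enhancer regions were above 0 (median 0.80) with 10 libraries and 14 of 15 (median 0.72) with 12. Over all enhancer regions 50.5% (10 libraries) and 62.1% (12 libraries) were above 0. Neighbouring regions overlap in part and share reads, so they are not separate measurements.

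Acot3, the neighbour of Acot4, had 0.84 ± 0.20 (adjusted p = 0.0935), Acot2 0.38, Acot5 0.12 and Acot1 0.10, and 53 of 66 enhancer regions near Acot4 were above 0 (median 0.31). The Acot genes are close paralogs, and how shared reads were counted is not given in the sources used here. Near A1cf 35 of 45 were above 0 (median 0.32), near Gm29684 10 of 20 (median 0.03), and near Mir704 0 of 19 (median -0.42). Near Tgm1 4 of 5 were above 0 (median 0.27). Near Smpd5, a higher promoter, 3 of 7 were above 0 (median -0.14), and near Myl7, a lower one, 12 of 27 (median -0.06). Of those 27 regions, which form 4 loci of overlapping regions, 2 lay above every control in all drug libraries. Over all enhancer regions tested with 10 libraries that share was 2.21%. The promoters beside Mir704 did not go with it: Pdia4 had 0.21, Zfp398 0.09 and Zfp786 -0.16.

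Other promoters came out by smallest p without passing. In the 12-library comparison Mir126b, inside the gene span of the endothelial factor Egfl7, had 32.9, 38.7, 40.7 and 47.4 CPM in PCN, 42.2, 36.7, 51.2 and 53.5 CPM in atorvastatin, and 24.8, 29.0, 21.1 and 30.1 CPM in control livers. Every drug-treated library stood above every control (0.71 ± 0.19, adjusted p = 0.980). Egfl7 showed the same separation at its own promoter, with 19.8 to 34.6 CPM in drug-treated and 16.1 to 19.4 CPM in control livers (0.48 ± 0.18). The 2 promoters belong to a single locus. Of the 17 endothelial genes listed, 9 were below 0 with 12 libraries and 13 with 10.

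Lower in every drug-treated library were Mir6965, a miRNA gene on chromosome 17, and 4933431G14Rik, a long non-coding gene. Mir6965 had 11.8, 10.1, 10.2 and 9.10 CPM in PCN, 9.05, 6.86, 7.44 and 8.31 CPM in atorvastatin, and 15.8, 14.9, 31.1 and 22.6 CPM in control livers (-1.19 ± 0.26, adjusted p = 0.980). 4933431G14Rik had 8.19, 7.78, 14.2 and 11.0 CPM in PCN, 6.40, 10.8, 6.43 and 11.9 CPM in atorvastatin, and 18.2, 21.1, 29.5 and 18.2 CPM in control livers (-1.17 ± 0.26). With 10 libraries both stayed separated, at -0.87 ± 0.24 and -0.91 ± 0.22 (adjusted p 0.332 and 0.110).

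Garnl3 had the largest of these estimates, -2.30 ± 0.56, with 1.24 to 5.75 CPM in drug-treated livers, 36.7 CPM in control 3 and 3.41 to 8.79 CPM in the other 3 controls. Without the pair left out it was -1.33 ± 0.50. C1qtnf5, a secreted C1q-family protein gene, had 13.5, 10.7, 13.9 and 9.57 CPM in PCN, 11.9, 8.88 and 10.5 CPM in atorvastatin, and 21.2, 16.8 and 25.3 CPM in control livers with 10 libraries (-0.86 ± 0.20, adjusted p = 0.0705). Atorvastatin 3, left out, had 28.6 CPM there. Just outside the threshold with 10 libraries stood Necab2 at 0.97 (adjusted p = 0.0689), and just inside stood Smpd5 and A1cf (0.0442).

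The mature strands of these other 2 miRNA genes are given with the seed in capitals. No 2 of the 7 mature sequences printed share a seed.
mmu-miR-126b-5p: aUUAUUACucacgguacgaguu
mmu-miR-126b-3p: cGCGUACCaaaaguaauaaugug
mmu-miR-6965-5p: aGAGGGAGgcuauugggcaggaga
mmu-miR-6965-3p: uCUGUGCUcggucucgcuccag

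Known targets of PXR and genes of cholesterol synthesis did not pass the threshold in the pooled comparison. Cyp3a11, the classical PXR target, had 12.7, 22.3, 23.4 and 32.3 CPM in PCN, 16.3, 16.7, 38.8 and 17.6 CPM in atorvastatin, and 14.4, 16.1, 7.58 and 20.1 CPM in control livers. The groups overlapped, and the change was 0.64 ± 0.28 with 12 libraries and 0.31 ± 0.19 with 10 (adjusted p 0.980 and 0.7105). Cyp2b10, the classical target of the related receptor CAR, had -0.22 ± 0.34 and -0.36 ± 0.30. Srebf2, the transcription factor that raises cholesterol synthesis genes, had 0.52 ± 0.24 and 0.45 ± 0.20, and Ebp, a late enzyme of cholesterol synthesis, 0.93 ± 0.25 and 0.71 ± 0.17 (adjusted p 0.980 and 0.155).

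The promoter of Nr1i2, PXR itself, turned with the library set. It had 29.2, 30.9, 44.8 and 40.3 CPM in PCN, 27.1, 31.4, 25.04 and 40.0 CPM in atorvastatin, and 23.7, 36.9, 81.3 and 39.6 CPM in control livers. Control 3 stood far above all others. The estimate was -0.41 ± 0.24 with 12 libraries and 0.12 ± 0.17 with 10, neither past the threshold (adjusted p 0.980 and 0.804).

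Among fasting and metabolic genes, G6pc, which releases glucose from the liver, had 0.92 ± 0.31 with 12 libraries and 0.63 ± 0.18 with 10, and Fbp1, another gluconeogenic enzyme, 0.59 ± 0.24 and 0.78 ± 0.21. Cpt1a, the gate of mitochondrial fatty acid entry, had 0.44 ± 0.23 and 0.39 ± 0.22. Bdh1, a ketone body enzyme, had 0.59 ± 0.19 and 0.60 ± 0.17. Fgf21, the fasting hormone of the liver, had -0.35 ± 0.17 and -0.37 ± 0.16, and Cfb, a complement factor, 0.90 ± 0.26 and 0.77 ± 0.23. None of these passed, with adjusted p of 0.980 throughout with 12 libraries. Onecut2, a hepatic transcription factor, had 44.7 to 64.5 CPM in drug-treated and 30.03 to 39.4 CPM in control livers with 10 libraries and separated them fully (0.69 ± 0.20, adjusted p = 0.385).

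Whether a promoter stood above or below 0 went with its level. With 1 promoter per gene and 10 libraries, 7.72% of genes in the lowest of 4 equal bins of mean level were above 0, then 14.2%, 62.2% and 90.9% in the highest, with median log2 changes of -0.44, -0.27, 0.06 and 0.19. With 12 libraries the shares were 41.7%, 35.9%, 59.9% and 78.2%. The level is counts per promoter, and the width of the counted window is not given in the sources used here. Leaving out control 1 turned the lowest bin's share with 10 libraries to 41.7% and the highest to 66.2%. The sign of a gene list is therefore given beside the median of promoters of like level.

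The 30 genes of fatty acid oxidation and ketogenesis had 25 above 0 with 10 libraries (median 0.30) and 26 with 12 (median 0.29), against 43.8% of all genes (median -0.06) and 53.9% (median 0.03). Of the 30, 22 stood above the median of their own bin, by a median of 0.13. Acot4 was the only member past the threshold. Leaving out a single library moved the list's median with 10 libraries between 0.13 and 0.37. The 27 hepatocyte genes had 22 above 0 (median 0.24) with 10 libraries, 20 of them above their bin's median (by 0.09), and 23 with 12 (median 0.31). Leaving out a single one of the 10 libraries moved that median between 0.08 and 0.37 and the count between 16 and 23. The 27 acute phase and complement genes had 21 above 0 (median 0.20), 18 above their bin's median (by 0.13), and its median moved between 0.12 and 0.27 in the same way.

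Of the other lists, the 31 cholesterol genes had 29 above 0 (median 0.16) but 16 above their bin's median (by 0.01), the 28 nuclear receptors and hepatic transcription factors 25 (median 0.25) but 17 (by 0.09), and the 26 iron genes 20 (median 0.18) but 15 (by 0.07). Hamp was the single iron gene past the threshold. The 49 PXR and CAR drug-metabolism genes had 27 above 0 with 10 libraries (median 0.04) and 34 with 12 (median 0.19), and no member passed in either set. Under library-total scaling, which moved the median of all genes to -0.17, their median with 10 libraries was -0.10. Against promoters of like level, 30 of the 49 stood above their bin's median (by 0.07).

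The 6 remaining metabolic and stress lists had most genes above 0 with 10 libraries, but not all kept this against promoters of like level. For bile acid disposal 18 of 22 genes were above 0 (median 0.06) and 10 above their bin's median (-0.02 from it). For gluconeogenesis and fasting these were 20 of 23 (0.18) and 14 (0.01), and for stress genes 21 of 25 (0.15) and 9 (-0.03). For NRF2 targets they were 14 of 18 (0.17) and 9 (-0.0073), for the clock 16 of 18 (0.23) and 11 (0.06), and for fatty acid and triglyceride synthesis 21 of 29 (0.21) and 17 (0.07). Under loess scaling, which fits the trend with level, 11 of 22 bile acid genes (median -0.0021), 11 of 23 gluconeogenesis genes (-0.010), 9 of 18 clock genes (0.01), 8 of 25 stress genes (-0.06) and 16 of 31 cholesterol genes (0.0044) were above 0. Leaving out a single library moved the gluconeogenesis median between 0.02 and 0.32 and the bile acid median between -0.0091 and 0.21. No member of the 6 lists passed.

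**Figure D3:**
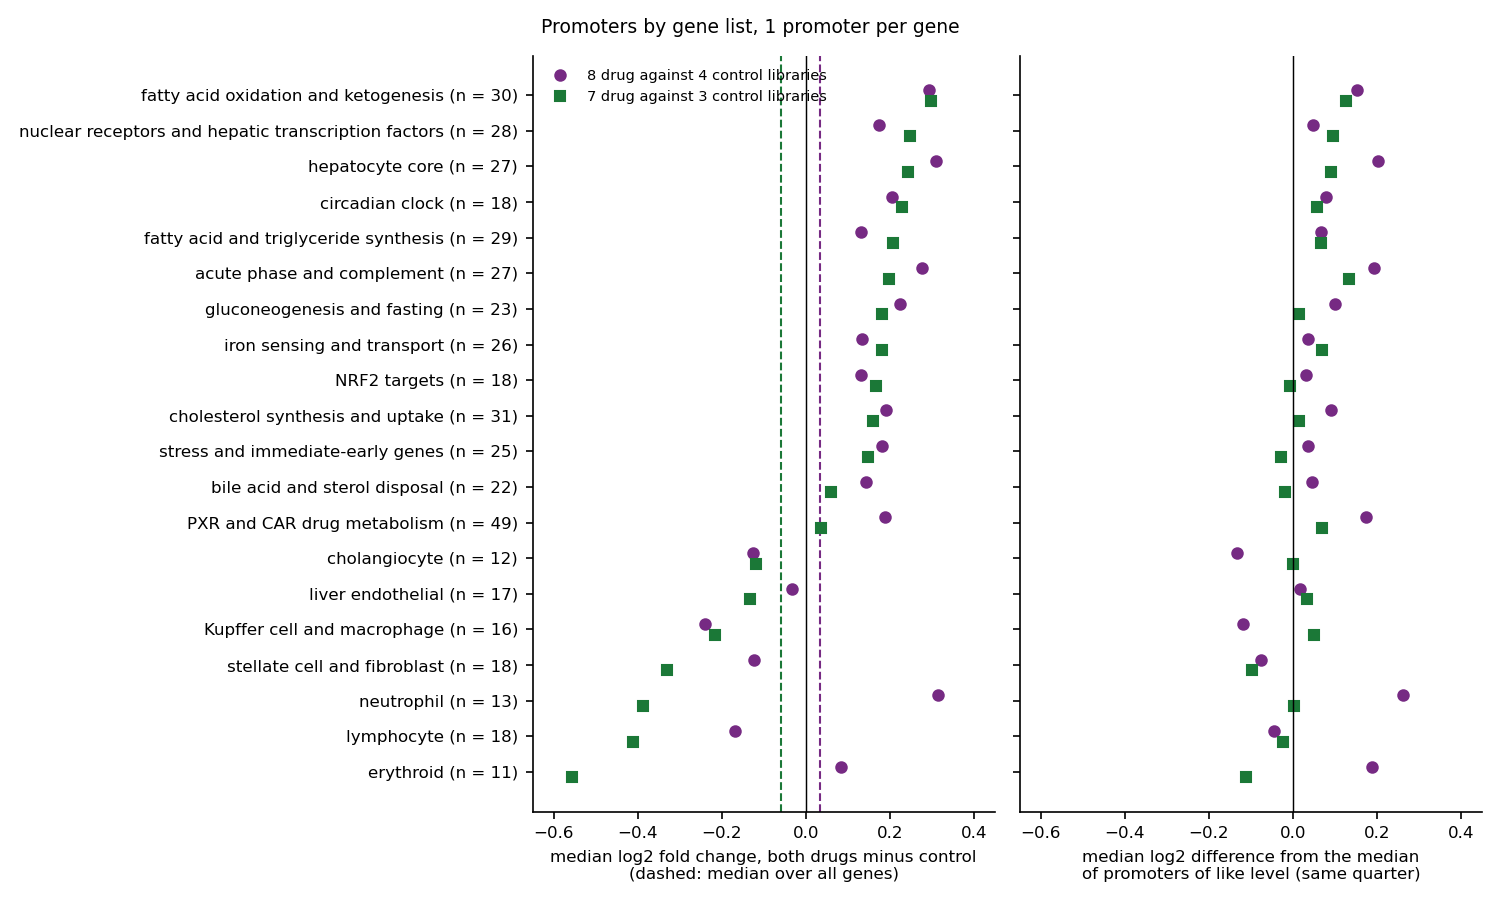
Median log2 fold change, both drugs minus control, of each gene list (left, horizontal axis, dashed lines at the median of all genes) and its median difference from promoters of like level (right), for 12 and 10 libraries, with lists down the page. Hepatocyte and metabolic lists lie right of 0 and blood and stromal lists left of it on the left panel with 10 libraries, and most lists lie near 0 on the right panel.

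Markers of other liver cells stood lower with 10 libraries: 1 of 18 lymphocyte genes was above 0 (median -0.41), 2 of 18 stellate and fibroblast genes (-0.33), 4 of 16 Kupffer genes (-0.22), 4 of 17 endothelial genes (-0.13), 3 of 13 neutrophil genes (-0.39), 4 of 12 cholangiocyte genes (-0.12) and 2 of 11 erythroid genes (-0.56). None passed the threshold. Most of these promoters lie in the lower 2 of the 4 bins, and against promoters of like level the medians were -0.02 for lymphocyte, -0.10 for stellate, 0.05 for Kupffer, 0.03 for endothelial, 0.0028 for neutrophil, -0.00033 for cholangiocyte and -0.11 for erythroid genes. With 12 libraries the neutrophil median was 0.32 and the erythroid median 0.08, so their direction turned. Leaving out a single one of the 10 libraries moved the neutrophil median between -0.56 and 0.16 and the erythroid median between -0.85 and 0.15, and the endothelial and cholangiocyte medians also reached above 0 (0.12 and 0.03). The lymphocyte median stayed between -0.50 and -0.15.

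Summed over the list and 12 libraries, lymphocyte promoters held 78.9 to 126 CPM in PCN, 60.4 to 224 CPM in atorvastatin and 89.2 to 156 CPM in control livers. Hepatocyte promoters held 1054 to 1396 CPM in PCN, 862 to 1475 CPM in atorvastatin and 676 to 1327 CPM in control livers, so markers of the labelled tissue were open in every library. No listed marker tested was at 0 in every library, which the filter on low counts already ensures. In bulk liver, fewer cells of a type and less open chromatin per cell cannot be told apart. Lck, a T-cell kinase, stood below every control in every drug-treated library (-0.68 ± 0.23 with 12 and -0.46 ± 0.21 with 10). Klf1, an erythroid transcription factor, stood above every control in both sets (0.43 ± 0.17 and 0.46 ± 0.16), while 9 of the 11 erythroid genes were below 0 with 10 libraries. Neither passed.

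Enhancer regions gave a single call in the pooled comparison. With 12 libraries 0 of 186135 regions passed (0%), 4511 were higher (2.42%) and 2511 lower (1.35%) at an unadjusted p below 0.05, and DESeq2 called 2. With 10 libraries 1 of 197071 passed (0.000507%), a region in Fmo5 that was lower in drug-treated livers, and at an unadjusted p below 0.05 there were 8814 higher (4.47%) and 8715 lower (4.42%). A looser adjusted p of 0.1 gave 26 regions, 9 higher and 17 lower, in 12 separate loci. Every drug library lay above every control at 1442 regions (0.775%) and below at 334 (0.179%) with 12 libraries, and at 4346 (2.21%) and 2774 (1.41%) with 10. PCN and atorvastatin did not differ at any region past the threshold in either set (0%), with 1019 and 4136 at an unadjusted p below 0.05.

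The called region, chr3:97648472-97648618 (mm10), lies in the body of Fmo5, a flavin monooxygenase of hepatocytes. It had 0.772, 0.783, 1.74 and 1.65 CPM in PCN, 0.874, 1.21 and 1.93 CPM in atorvastatin, and 6.78, 6.47 and 10.3 CPM in control livers. All drug-treated libraries were below all controls (-2.48 ± 0.40, adjusted p = 0.0241). The call was lost without PCN 2, atorvastatin 2, control 1 or control 2 (adjusted p 0.0522, 0.0778, 0.0674 and 0.176). With 12 libraries the region did not pass the filter on low counts. With 10 it met that filter through the control libraries alone, where it is high, and such an entry favours a lower value in drug-treated livers. A second region in Fmo5, chr3:97645530-97645676, had -2.21 ± 0.41 (adjusted p = 0.0519). It too met the filter through the control libraries.

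Of the same direction were chr3:60736151-60736285, away from any gene body, and chr9:48769020-48769166 in Zbtb16, which encodes a zinc finger repressor. The chr3 region had 4.25, 2.09, 1.74 and 1.98 CPM in PCN, 3.06, 1.21 and 1.54 CPM in atorvastatin, and 11.7, 6.18 and 6.89 CPM in control livers (-1.99 ± 0.36, adjusted p = 0.0519). All 9 tested regions of its locus lay below every control in all drug libraries, as did 1.41% of all regions tested. These 9 overlap within chr3:60736091-60736311 and share reads, so they are not separate measurements. In Zbtb16 the region had 0.437 to 1.42 CPM in drug-treated and 2.94 to 7.68 CPM in control livers (-2.77 ± 0.51, adjusted p = 0.0519). The Zbtb16 region met the filter on low counts through the control libraries alone, where it is high. With the pair restored, atorvastatin 3 had 26.8 CPM at the chr3 region, above every control.

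Higher in drug-treated livers was chr17:31904335-31904441, 5637 bp from the start of 2310015A16Rik. It had 3.51, 8.86, 7.33 and 14.0 CPM in PCN, 10.5, 7.43, 7.59 and 12.0 CPM in atorvastatin, and 2.23, 0.943, 3.26 and 1.84 CPM in control livers. The arms were apart in both library sets, with 2.11 ± 0.50 with 12 libraries and 2.42 ± 0.44 with 10 (adjusted p 1.00 and 0.0519). A region beside it, chr17:31904112-31904218, had 1.62 ± 0.41 and 1.80 ± 0.34 and was apart in both sets too. In Arhgef10l, chr4:140532268-140532460 had 6.55 to 17.5 CPM in drug-treated and 1.58 to 3.44 CPM in control livers with 10 libraries (2.19 ± 0.38, adjusted p = 0.0519), but 0.59 ± 0.58 with 12, where atorvastatin 3 had 1.52 CPM, below every control, and control 3 had 18.5 CPM.

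By smallest p with 12 libraries, 2 higher regions lay near promoters named above. The region chr17:57233219-57233401, in Trip10 and 5082 bp from the start of C3, had 24.6, 26.0, 23.1 and 29.1 CPM in PCN, 22.9, 25.7, 36.7 and 22.2 CPM in atorvastatin, and 12.4, 10.1, 9.23 and 15.6 CPM in control livers (1.17 ± 0.26). The region chr7:30940236-30940418, 3610 bp from the start of Hamp, had 6.61, 5.82, 3.85 and 4.55 CPM in PCN, 3.34, 5.26, 25.1 and 10.9 CPM in atorvastatin, and 1.24, 1.57, 0 and 0 CPM in control livers (3.14 ± 0.74, a value that depends on the counts of 0). Both separated the arms in both library sets, and neither passed the threshold (adjusted p with 10 libraries 0.191 and 0.111). The region near Hamp met the filter on low counts through the drug-treated libraries alone, where it is high.

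Of the 3 lower regions of smallest p with 12 libraries, 2 leaned on control 3. In chr5:100637037-100637229, 37026 bp from the start of Coq2, drug-treated livers had 0 to 3.34 CPM, against 36.9 CPM in control 3 and 4.40 to 5.71 CPM in the other controls (-2.93 ± 0.61, and -1.58 ± 0.49 with 10 libraries). In chr9:50885129-50885321, in Ppp2r1b, drug-treated livers had 2.10 to 5.99 CPM, against 35.3 CPM in control 3 and 8.19 to 10.1 CPM in the other controls (-1.78 ± 0.41, and -1.03 ± 0.31). The 11 overlapping tested regions of that locus did not go together: 6 were above 0 and 5 below, with a median of 0.56, and this 1 alone lay below every control in all drug libraries. The third, a region in Gm10556 on chromosome 18, had 0.277 to 1.91 CPM in drug-treated and 3.46 to 8.15 CPM in control livers (-2.78 ± 0.64, and -2.43 ± 0.64). All 3 stayed apart with 10 libraries. The Gm10556 region met the filter on low counts through the control libraries alone, where it is high.

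**Figure D4:**
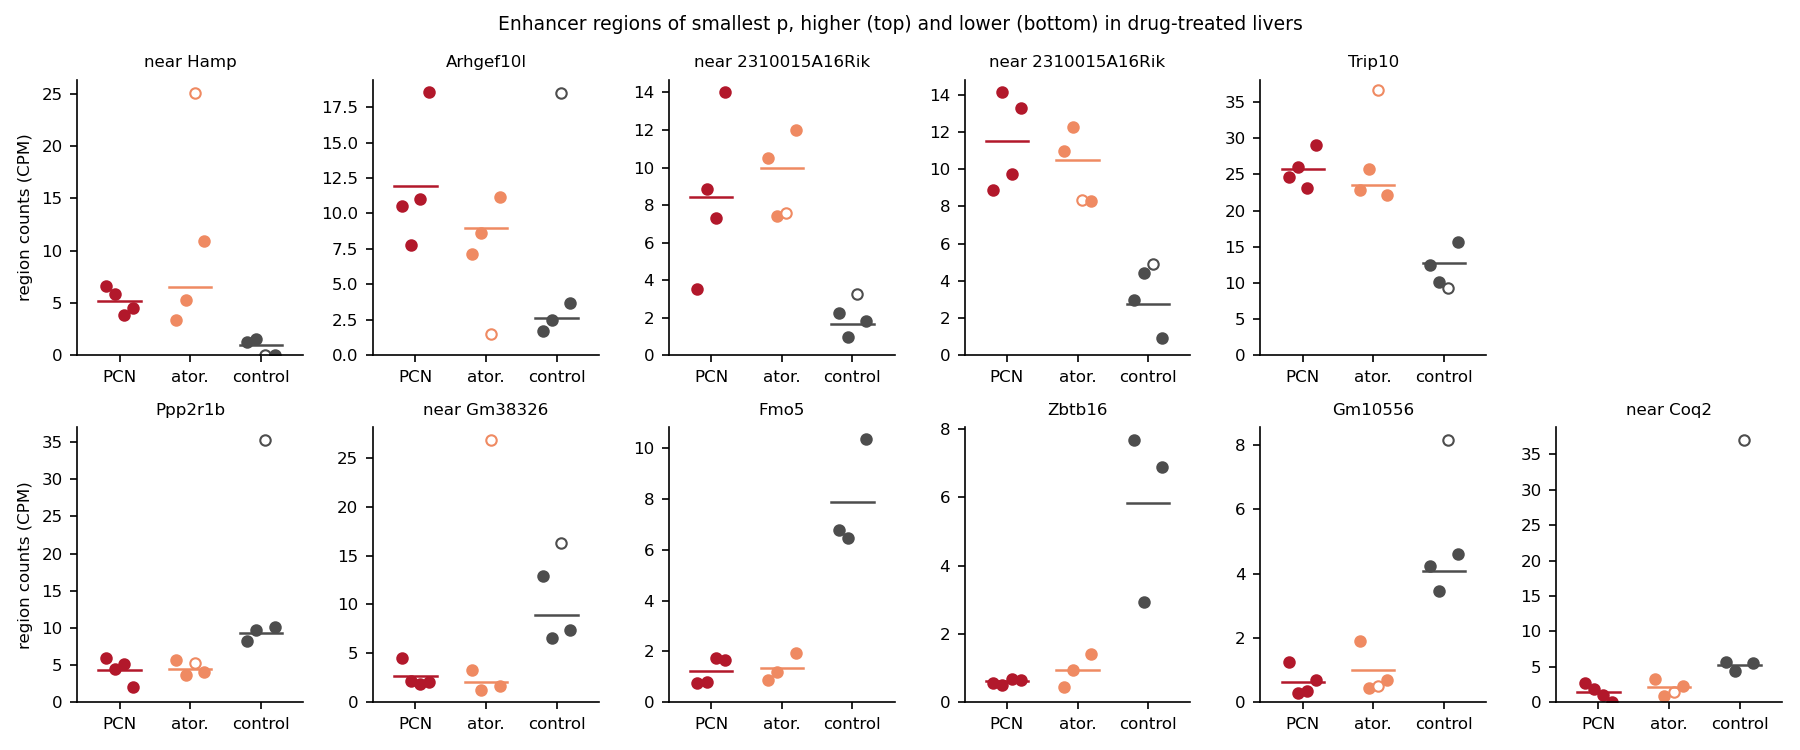
CPM (vertical axis) at the enhancer regions of smallest p in PCN, atorvastatin and control livers (horizontal axis), higher ones in the top row and lower ones in the bottom row, titled by the gene that holds them or the nearest start. Points are libraries, open circles are atorvastatin 3 and control 3, and bars are means of the filled points, with values scaled over 12 libraries where the region was tested there. Control 3 stands alone near Coq2 (36.9 CPM) and in Ppp2r1b (35.3 CPM).

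Where a lower region was found depended on its width. Of the 406518 regions, 406433 have 1 of 12 widths, and each width is highest in a different library. The classes that are highest in a control library held 22.9% of tested regions with 12 libraries, but 54.2% of those below every control in all drug libraries and 6.87% of those above. With 10 libraries they held 22.5% of tested, 49.2% of lower and 8.63% of higher regions. The Fmo5 and Zbtb16 regions are of the width highest in control 4. The lower region chr3:60736151-60736285 is of the width highest in control 1, and the Gm10556 region of that highest in control 2. The higher regions chr17:31904335-31904441 and chr17:31904112-31904218 are of the width highest in PCN 2. The named regions near Coq2, in Ppp2r1b and in Arhgef10l are of the width highest in control 3, and those near C3 and near Hamp of the width highest in atorvastatin 3. The part of this width effect in the results was not tested beyond leaving out the classes of control 3 and atorvastatin 3.

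**Figure D5:**
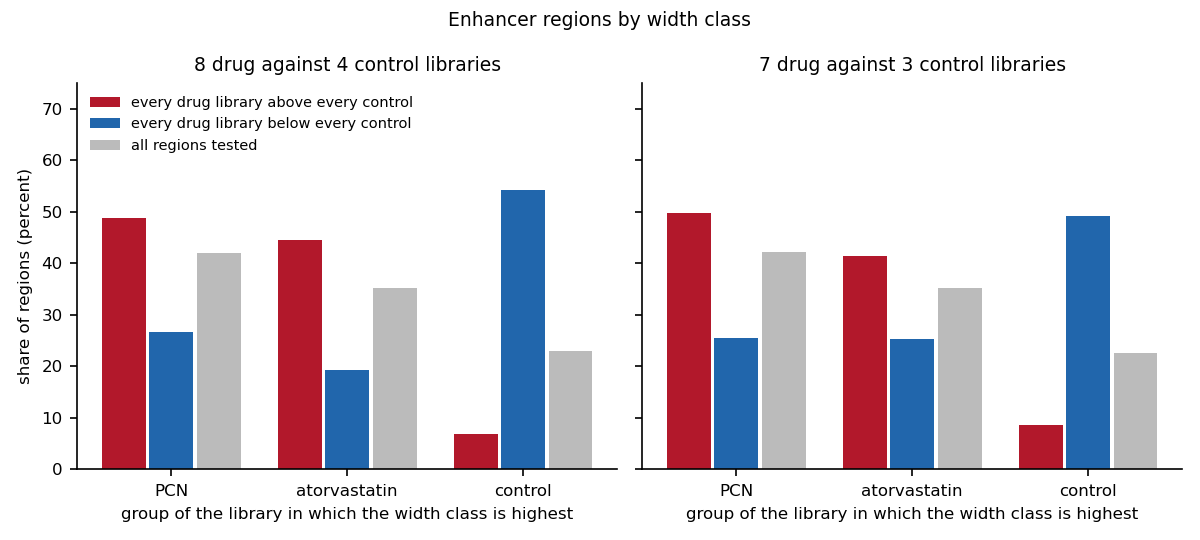
Share of enhancer regions (percent, vertical axis) by the group of the library in which their width is highest (horizontal axis), for regions where every drug library is above or below every control and for all tested regions. Control-library widths hold 54.2% of the lower regions and 22.9% of tested ones with 12 libraries (left), and 49.2% and 22.5% with 10 (right).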

How the data were processed

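ATAC-seq was deposited as 2 tables of 12 libraries, with promoters by transcript and enhancer regions by position. The values are estimated counts that the authors deposited in steps of 0.5, and 28.1% of promoter and 41% of enhancer values are not whole. They were rounded to whole numbers, upwards where midway. Per the submitters' processing notes, Trimmomatic, STAR 2.7.9a, bedtools 2.30.0 and HOMER 4.10 were used with mm10. The rule for the regions, the counting of reads with several matches and any shift for the transposase are not given in the sources used here, and each of them could move the values. Nothing states that libraries came from separate animals, so the p-values speak for the spread among libraries, which may be technical. That spread is in part shared over the whole table, so a small p need not mean a small spread at that promoter. Myl7 passed although its drug-treated values sat inside the control range. For Mir6978 the quasi-likelihood test gave an unadjusted p of 2.37e-09 without the pair left out and 1.57e-05 with 12 libraries. Its changes were 1.27 and 1.29. The part of the shared spread in the calls was not tested.

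Regions were filtered at a minimum count of 10 (filterByExpr, minimum total 15), scaled by TMM and tested with edgeR 4.0.16's quasi-likelihood test (R 4.3.3) and Benjamini-Hochberg adjustment over the whole table, at a threshold of 0.05. A 2-level arm factor gave the pooled change, and a fit with 3 groups gave each drug and their difference. CPM are counts scaled to a common library total after TMM, with a prior count of 2 on the log2 scale for separation. SE is the log2 change over the root of F. The script was tested on simulated data. The library totals are given in the opening, and the enhancer classes and loci in the last paragraphs.

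Named were the called regions, or the 3 of smallest p in each direction where fewer qualified, and core genes. Core genes not given one by one enter the core list's counts, 25 of 30 above 0 with 10 libraries and 23 of 30 with 12, and list members appear by count. A gene is shown by its promoter of highest mean CPM. The members, the 20 lists (459 genes) and the core genes were chosen with earlier results of these data known. Of 43511 promoters 42203 matched RefSeq, which gave gene spans and sequences (GRCm38.p6). DESeq2 1.42.0 and limma 3.58.1 were alternatives. Libraries of like replicate number went together only in part. Correlations of their deviations from group means ran from -0.42 to 0.50 for promoters with 12 libraries and from -0.13 to 0.72 with 10. With 10 libraries they were 0.63 to 0.72 for number 1, 0.25 to 0.31 for number 4 and -0.13 to 0.16 for number 2. The main fits have no term for the replicate number.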

Additional observations from a re-analysis of the deposited data

Results flagged for a closer look

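In 23 of 256 groups of 4 to 8 libraries (8.98%) the highest or lowest library stood apart from the others by Dixon's criterion, which chance alone meets in about 1 of 20. No explanation was tested for any of them.

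Atorvastatin 3 stood apart most often. It had no count in 27.4% of enhancer regions, against 6.82% in the next atorvastatin library. It was the highest atorvastatin library at the promoters of C1qtnf5 (28.6 CPM, also highest of all drug libraries) and Cyp3a11 (38.8 CPM). Among all 8 drug libraries it was highest at the enhancer region in Trip10 near C3 (36.7 CPM) and at the region near Hamp (25.1 CPM). The same held at chr3:60736151-60736285 (26.8 CPM, also within atorvastatin), whose nearest gene start, that of Gm38326, is 52075 bp away.

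Control 3 was the highest control at Garnl3 (36.7 CPM), near Coq2 (36.9 CPM), in Ppp2r1b (35.3 CPM) and in Arhgef10l (18.5 CPM). The first 3 of these were lower in drug-treated livers with 12 libraries, and were still lower with the 10 that leave out control 3.

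Atorvastatin 4 was highest at Egfl7, within atorvastatin and over the drug libraries (34.6 CPM with 12 libraries, 34.2 CPM with 10), and, among the 7 drug libraries, at the region near Hamp (10.3 CPM). Atorvastatin 1 was highest at the Gm10556 region (1.91 CPM). PCN 1 was the lowest PCN library at Cpt1a (56.3 CPM) and Klf1 (33.0 CPM), and the highest at the chromosome 3 region (4.55 CPM). PCN 1 was also the highest of the 7 drug libraries at Mir704 (12.0 CPM). PCN 3 was the lowest PCN library at A1cf (16.8 CPM), and PCN 4 the highest of 7 in Arhgef10l (17.5 CPM).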

How the results depend on the processing

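With 12 libraries the promoter count of 0 was 3232 under limma-voom with sample weights (1000 higher, 2232 lower), 1 under DESeq2 and 1 with a covariate. That covariate is each library's share of counts in the promoters of highest mean CPM over all 12 libraries, an alternative chosen after seeing the data. The enhancer count of 0 was 179 with sample weights and 2 under DESeq2. With 10 libraries the 11 promoters were 4 under library totals, 3 under loess, 7 with a minimum count of 30, 6 with 3 groups, 20 at an adjusted p of 0.1, 24 under limma-voom, 6569 with sample weights (1990 higher, 4579 lower), 3 under DESeq2 and 4 with the covariate. Without single libraries they were 3 (without atorvastatin 2) to 51 (without atorvastatin 1). The replicate block, whose libraries of like number went together only in part, gave 401 promoters with 10 libraries, the 11 among them, and 110 enhancers. With 12 libraries it gave 0 of either. The single enhancer was 0 under loess, with a minimum count of 30 and with 3 groups, 142 with no filter, 26 at an adjusted p of 0.1, 403 under limma-voom, 651 with sample weights, 31 under DESeq2, 2 with 1 region per locus, 9 with the covariate and 0 to 27 without single libraries. Nr1i2 turned to 0.0435 without control 3 with 12 libraries (range over single libraries -0.641 to 0.0435), and with 10 to -0.0103 with sample weights, -0.120 without control 1 (range -0.120 to 0.251) and -0.134 with the covariate. The causes were not tested. Hamp (1.26 to 1.59) and Mir6978 (1.06 to 1.40) passed under all 22 alternatives with 10 libraries, and no called promoter changed direction. The other called genes lost their calls under loess, DESeq2 and the covariate. Of the 22 alternatives, Tnfsf14 lost its call under 4, Acot4 under 7, and Gm29684 and Myl7 under 8 each. Mir704 lost it under 11, A1cf and Smpd5 under 13 each, and Tgm1 under 11 of 21. Counts between the drugs stayed at 0 under every alternative run, and single-library ranges not given were 0 to 0. Low counts limit the enhancer values, with no count in many regions of control 3 and control 4.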
